A study of Mus musculus with 6 samples.

Results

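B cells are the antibody-making lymphocytes, and 9 genes of their receptor, surface and lineage were followed in mouse small intestine. They are the receptor subunits Cd79a and Cd79b, the surface proteins Ms4a1, Cd22, Cr2 and Fcer2a, the kinase Blk, the transcription factor Pax5 and the chemokine receptor Cxcr5. They were taken by symbol from the 24452 symbols of each library's table, and all 9 were found. RNA-seq was run on the small intestine of C57BL/6 mice at postnatal day 14, with 3 libraries labelled wild type and 3 labelled Erk1/2 -/-, a homozygous loss of the ERK1 and ERK2 kinases. The labels name no Cre driver or targeted cell type, so they do not say whether B cells carry the loss, and they do not say that each library came from a separate animal. P-values therefore measure only the spread between these 6 libraries.

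A B cell reads antigen through a surface immunoglobulin that is paired with the CD79A and CD79B chains, whose tails pass the signal to kinases such as BLK. CD22 dampens that signal, the complement receptor CR2 (CD21) strengthens it, and PAX5 holds cells in the lineage. In the gut, B cells gather in Peyer's patches and in isolated lymphoid follicles, which form after birth. CXCR5 draws them there towards the chemokine CXCL13.

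The values are normalised counts: the authors scaled each library's read counts and rounded them. Values given by library stand in the order of replicates 1, 2 and 3. The counts summed to between 13641468 and 17153570 per library. Mapk3, which encodes ERK1, was not lower under the knockout label: the wild type libraries had 3142, 2788 and 2004 and the labelled knockout libraries 3363, 2280 and 2734 (limma adjusted p = 0.819). The labels do not say which part of the gene was removed, so its transcript level does not check the genotype. Directions below therefore follow the labels alone. Epithelial and smooth muscle genes were present: Epcam was at 20039 or above and Myh11 at 6001 or above in each library. These genes do not tell which part of the gut was taken. Wild type 3 and labelled knockout 1 stood apart from the rest in genes of gut position. Onecut2, a transcription factor of the proximal intestine, was at 200 and 75 there and between 1835 and 2560 in the other libraries.

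Every B cell gene of the 9 was lower in all 3 labelled knockout libraries than in any wild type library. Their sum was 418, 587 and 612 normalised counts in the wild type libraries and 130, 144 and 176 in those labelled knockout. Among all genes tested, 17.9% had the groups apart in this direction. Of the 9, 8 passed the filter of at least 10 in at least 3 libraries, and 6 of these were called lower in the limma fit over 14682 genes (adjusted p under 0.05), where 3.94% of all genes tested were called lower. All 8 fold changes were negative, so none was called higher, against 4.86% of all genes. Ms4a1, Cr2 and Fcer2a reached 10 in wild type libraries only and so could pass the filter only by being higher there. The count over the genes that passed is therefore a description. Their median log2 fold change was -1.86, beside -0.01 for all genes tested. In bulk tissue, fewer B cells and less of each transcript per B cell cannot be told apart.

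**Figure D1:**
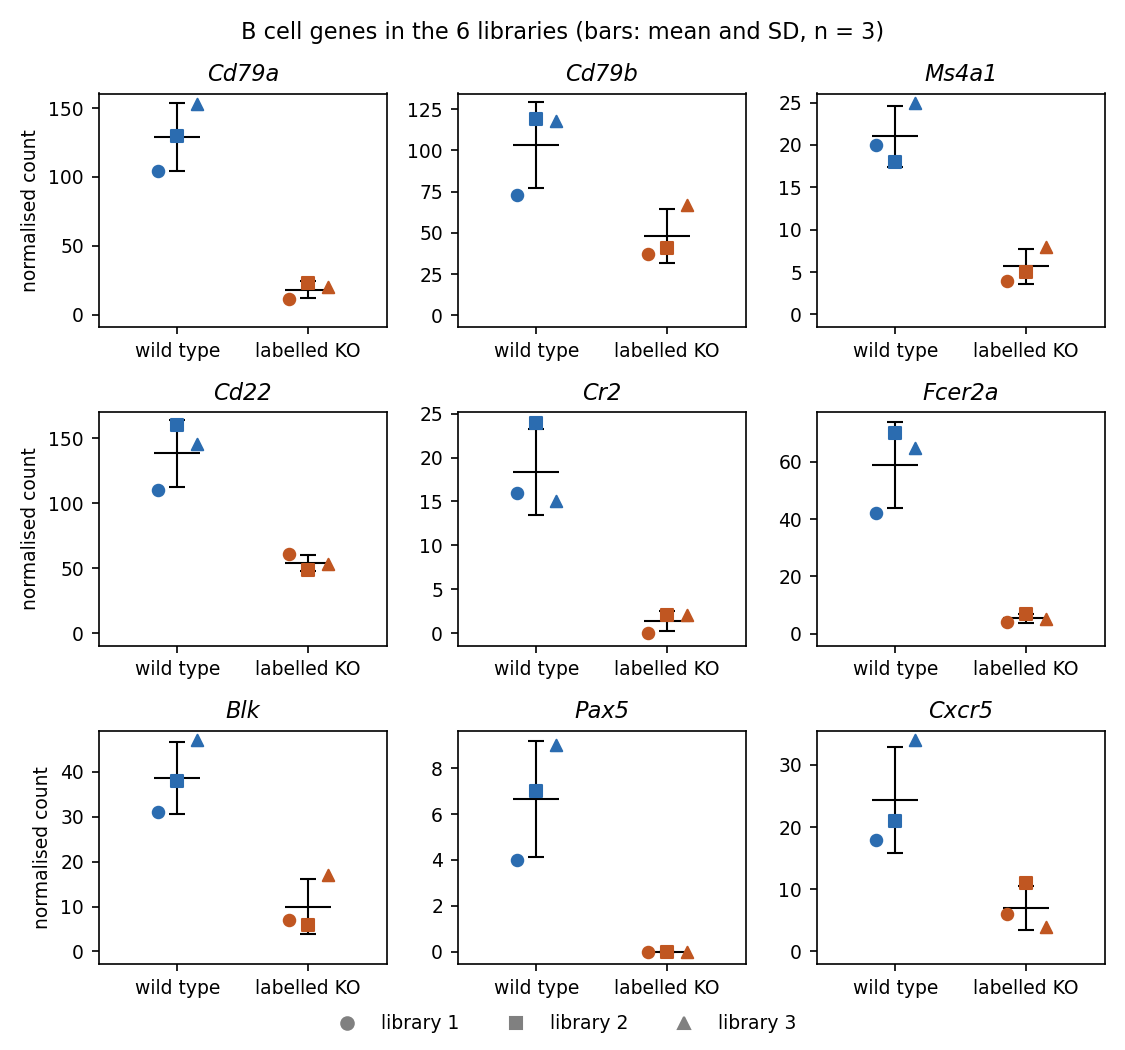
Normalised count (vertical axes, linear, each with its own scale that includes 0) of the 9 B cell genes in 3 wild type and 3 labelled knockout libraries. Points are libraries, bars the mean and SD; no labelled knockout point reaches a wild type point, and Pax5 is at 0 in all 3 labelled knockout libraries.

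The sequence just before Cd79a and Fcer2a, the members with the lowest p-values, is shown because motifs of B cell factors can be looked for there. The stretches are those of the RefSeq promoter table (GRCm38.p6), from 250 bases before the listed start up to the first start of any annotated transcript. That table matched 5 of the 9 members. The Cd79a stretch is chr7:24897247-24897380, plus strand, and the Fcer2a stretch is chr8:3694176-3694424, minus strand; capitals mark the motif match in the stretches shown, an E-box.
Cd79a: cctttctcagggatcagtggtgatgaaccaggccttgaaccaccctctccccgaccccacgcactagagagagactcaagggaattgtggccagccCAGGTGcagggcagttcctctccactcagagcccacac
Fcer2a: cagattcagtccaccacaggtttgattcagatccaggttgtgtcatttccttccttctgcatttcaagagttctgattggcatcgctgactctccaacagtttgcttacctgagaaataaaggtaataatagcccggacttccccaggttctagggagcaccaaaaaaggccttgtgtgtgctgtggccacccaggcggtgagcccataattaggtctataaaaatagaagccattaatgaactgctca
Motifs were searched on both strands in the 250 bases before each listed start: the octamer ATGCAAAT bound by POU2F factors, the ETS motif AGGAAGT, the EBF1 core TCCCNNGGG and the E-box CAGGTG bound by E2A. They occur in 1.6%, 7.69%, 5.6% and 17.22% of 32851 such windows. The Cd79a window held the E-box from base -154 to -149 and the ETS motif from base -55 to -49, a part not shown. The Fcer2a window at the start shown held none of the 4, and the window at a second listed start held the E-box at bases -244 to -239 and -99 to -94. The Cr2 window held an E-box from base -88 to -83. The Cd22 window held an E-box from base -245 to -240 and a pair of overlapping EBF1 core matches from base -49 to -40. The ETS match of Cd79a, the matches of Cr2 and Cd22 and those at the second Fcer2a start lie downstream of another annotated transcript start. All are matches of letters, not measured binding.

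Of the receptor's signalling subunits, Cd79a was called lower and Cd79b was not. Cd79a (chromosome 7, 24897381 to 24902197, GRCm38) encodes the subunit also called Ig-alpha. Normalised counts were 104, 130 and 153 in the wild type libraries and 11, 23 and 20 in those labelled knockout. The groups lay far apart, the nearest libraries being wild type 1 at 104 and labelled knockout 2 at 23. Cd79a fell 7.17-fold, from a mean of 129 ± 24.5 to one of 18.0 ± 6.25 (SD, n = 3 per group). Its log2 fold change was -2.82 ± 0.32 (SE), with a limma adjusted p of 0.0108.

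Cd79b (chromosome 11, 106311341 to 106314762) encodes the partner subunit, Ig-beta. It had 73, 119 and 118 normalised counts in the wild type libraries and 37, 41 and 67 in the labelled knockout libraries. The groups did not overlap, but labelled knockout 3 at 67 came close to wild type 1 at 73. The log2 fold change of -1.09 ± 0.31 did not pass (limma adjusted p = 0.0695), with a 95% interval from -1.82 to -0.37.

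The pair was compared within each library, which removes the scaling between libraries. This comparison was chosen after the values were seen. The log2 ratio of Cd79a to Cd79b was 0.51, 0.13 and 0.37 in the wild type libraries and -1.66, -0.81 and -1.70 in those labelled knockout. It was lower in each labelled knockout library than in any wild type library, by 1.72 on average. An exact two-sided permutation test gave p = 0.1, the smallest p that 3 libraries against 3 allow, and 0.186 when adjusted over the 13 ratios compared.

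Blk (chromosome 14, 63372836 to 63417037), the SRC family kinase that acts at the receptor, had 31, 38 and 47 normalised counts in wild type and 7, 6 and 17 in labelled knockout libraries. Labelled knockout 3 was again the highest of its group, and no library crossed over. Blk fell 3.87-fold between means (log2 fold change -1.96 ± 0.42, limma adjusted p = 0.0391).

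Cd22 (chromosome 7, 30865402 to 30880342) encodes a lectin that binds sialic acid and restrains the receptor. It had 110, 160 and 146 normalised counts in wild type and 61, 49 and 53 in labelled knockout libraries. The labelled knockout values were the tightest of the 8 tested members, with a coefficient of variation of 11.2%. Cd22 fell 2.55-fold (log2 fold change -1.32 ± 0.21, limma adjusted p = 0.02). The log2 ratio of Cd22 to Cd79a was -0.07 to 0.30 in wild type and 1.06 to 2.37 in labelled knockout libraries (exact permutation p = 0.1, the smallest possible, and adjusted p = 0.186).

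The surface receptors of mature B cells were left at low values. Fcer2a (chromosome 8, 3681737 to 3694175) encodes CD23, the low-affinity IgE receptor of follicular B cells. It had 42, 70 and 65 normalised counts in wild type and 4, 7 and 5 in labelled knockout libraries. All labelled knockout values were in single digits. Fcer2a fell 11.1-fold (log2 fold change -3.24 ± 0.33, limma adjusted p = 0.00855). It ranked 43 by p among all genes tested, first of the 8 members. Fcer2a passed the filter through wild type libraries only, so this rank is a description. Without a filter its limma adjusted p was 0.0103.

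Cr2 (chromosome 1, 195136811 to 195176716) encodes the complement receptor that B cells and follicular dendritic cells carry. It had 16, 24 and 15 normalised counts in wild type and 0, 2 and 2 in labelled knockout libraries. With so few counts left no fold is given. On the log2(normalised count + 1) scale, which understates the change of low genes, Cr2 fell by 3.19 ± 0.56 (limma adjusted p = 0.0249). Relative to Cd79a, the groups of libraries overlapped for both genes: the log2 ratio to Cd79a differed between groups by -0.42 for Fcer2a and by -0.37 for Cr2 (exact permutation p = 0.2 and 0.4, adjusted p = 0.325 and 0.52).

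Ms4a1 (chromosome 19, 11249675 to 11266241) encodes CD20, a membrane protein of B cells before they become plasma cells. It had 20, 18 and 25 normalised counts in wild type and 4, 5 and 8 in labelled knockout libraries. The groups were apart at low values on both sides. Ms4a1 fell 3.71-fold (log2 fold change -1.75 ± 0.36, limma adjusted p = 0.0348).

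The lineage factor Pax5 and the homing receptor Cxcr5 were not called. Pax5 (chromosome 4, 44524757 to 44710487) was at 4, 7 and 9 in wild type and is listed at 0 in all 3 labelled knockout libraries. It did not pass the filter and has no call in the fit. Without a filter it was called at a limma adjusted p of 0.0165. Cxcr5 (chromosome 9, 44511787 to 44561877) had 18, 21 and 34 normalised counts in wild type and 6, 11 and 4 in labelled knockout libraries. Its log2 fold change of -1.71 ± 0.44 did not pass (limma adjusted p = 0.0572; 95% interval -2.74 to -0.67), although the groups were apart. The Cxcr5 gene model overlaps Bcl9l on the other strand, and those of Ms4a1, Cd22 and Pax5 overlap antisense models. Whether counting used the strand is not given in the sources used here. Reads of such pairs may not have been told apart.

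Levels can be compared between genes per 1000 bases of exon. In wild type libraries Cd79a had 88.5 ± 16.8 normalised counts per 1000 bases and Cd79b 72.2 ± 18.4 (SD, n = 3), which did not differ beyond their spread. Cd22 followed with 28.4 ± 5.28 and Fcer2a with 25.0 ± 6.33, again within their spread, and then Blk with 16.6 ± 3.45, whose libraries overlapped those of Fcer2a. Cxcr5 with 8.39 ± 2.93 and Ms4a1 with 6.83 ± 1.17 overlapped as well. Cr2 and Pax5 came last with 2.5 ± 0.672 and 0.833 ± 0.314. In labelled knockout libraries the order changed at the top: Cd79b had 33.8 ± 11.4 normalised counts per 1000 bases, while Cd79a had 12.4 ± 4.29 and Cd22 11.1 ± 1.25. Fcer2a dropped from near Cd22 to 2.26 ± 0.648, beside Cxcr5 with 2.41 ± 1.24.

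The calls depended on which libraries were in the fit. Without wild type 2 none of the 6 genes stayed called in limma, although 48 of all genes were and all 8 tested members had an unadjusted p under 0.05. Without wild type 1 or wild type 3 only Cd79a and Fcer2a stayed called among the 6, and without labelled knockout 3 only Fcer2a did. Without labelled knockout 2, Cd22, Cd79a, Cr2 and Fcer2a stayed called. Without labelled knockout 1, and without wild type 3 and labelled knockout 1 together, all 6 stayed called. In that last fit, which leaves out the libraries that stood apart in gut position, Cd79a had a log2 fold change of -2.39 ± 0.23 and Fcer2a of -3.00 ± 0.38, while Cd79b and Cxcr5 again did not pass (limma adjusted p = 0.113 and 0.0832). The fold change of each of the 8 genes stayed negative in all of these fits, a direction already fixed by groups that do not overlap.

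Other genes of the B lineage were lower as well, though not all of them. Of 38 symbols listed, 35 were tested, and 11 were called lower and 1 higher, where 8.8% of all genes tested were called in either direction. Fcmr and Tnfrsf13c, which are among the 11, reached 10 in wild type libraries only, so the count is a description here too. The median log2 fold change was -0.83. Without wild type 3 and labelled knockout 1, 14 were called lower and 4 higher, and without labelled knockout 1 alone 12 and 3. The count of lower calls was 1 without wild type 3, 8 without labelled knockout 2, and 0 without wild type 1, wild type 2 or labelled knockout 3, where 16, 14 and 18 had an unadjusted limma p under 0.05 and a lower level. Tnfrsf13c, the BAFF receptor that keeps mature B cells alive, had 25, 32 and 35 normalised counts in wild type and 4, 5 and 9 in labelled knockout libraries, and fell by 2.23 ± 0.37 in log2 units (limma adjusted p = 0.0212). H2-Ob, a class II chaperone subunit of B cells, fell by 2.48 ± 0.42, and Fcmr, the IgM Fc receptor, fell by 3.28 ± 0.64 from 23, 17 and 31 to 0, 4 and 2. The surface protein gene Cd72 fell by 1.38 ± 0.18. Early lineage factor Ebf1 did not pass at -1.10 ± 0.31 (limma adjusted p = 0.0699). Spib, a transcription factor of B cells and of M cells, the antigen-sampling cells over follicles, fell by 1.70 ± 0.29. Fcgr2b, the inhibitory IgG receptor that myeloid cells also carry, was the gene called higher with all 6 libraries, at 1.22 ± 0.26. The most abundant gene of the list, Irf8, which macrophages also express, was not called at 0.27 ± 0.17.

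**Figure D2:**
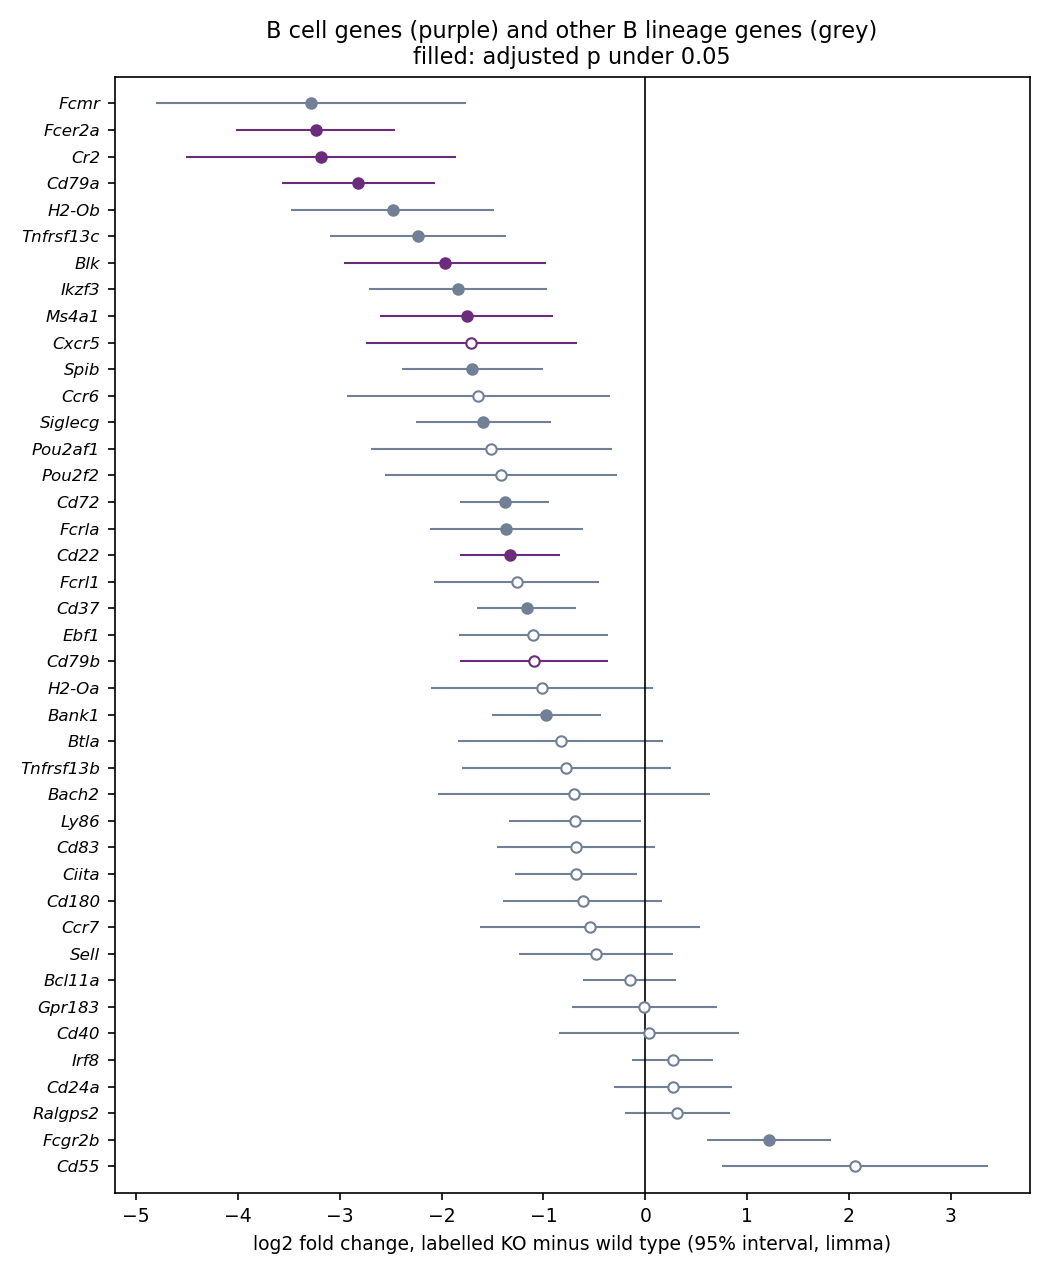
Log2 fold change with its 95% interval (horizontal axis, labelled knockout minus wild type) of the 8 tested B cell genes (purple) and of other B lineage genes (grey), filled where called. Ly6d, at 3.04 ± 1.38, is left out for its wide interval; Fcer2a, Cr2 and Cd79a are the lowest purple points, and Cd79b the highest.

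Downstream of the receptor the picture was mixed. Of 19 receptor signalling genes tested, 4 were called lower and 2 higher, beside 3.94% and 4.86% of all genes tested, with a median log2 fold change of -0.35. Without wild type 3 and labelled knockout 1 the counts were 9 and 3, and without wild type 1, wild type 2 or labelled knockout 3 none was called (6, 4 and 7 were lower at an unadjusted limma p under 0.05). Rasgrp3, which couples the receptor to RAS, fell by 1.17 ± 0.15, and Prkcb, a protein kinase C of B cells, fell by 1.39 ± 0.27. The lipid kinase gene Pik3cd fell by 0.79 ± 0.15. The adaptor gene Blnk rose by 0.90 ± 0.15 on the log2 scale, from 332 ± 40.4 to 620 ± 53.5 normalised counts (limma adjusted p = 0.0225). Bcl10, which many cell types express, rose by 0.55 ± 0.13.

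Genes of the later stages of B cells gave calls in both directions, to be read beside the 8.8% of all genes tested that were called. Of 7 germinal centre genes tested, 1 was called lower, Bcl6, which epithelium and T cells also express, by 1.02 ± 0.21. Of 12 plasma cell genes tested, 2 were called higher and 1 lower, with a median log2 fold change of 0.20. Those called, Sdc1, Xbp1 and Prdm1, are also epithelial genes. Without wild type 1, wild type 2 or labelled knockout 3, limma called 0 genes of these lists. At an unadjusted p under 0.05, those fits had 3, 2 and 2 germinal centre genes and 6, 5 and 7 plasma cell genes. Without wild type 3 limma also called 0 genes of either list, with 1 and 5 at an unadjusted p under 0.05. Without labelled knockout 2 it called 0 germinal centre genes and 1 plasma cell gene, with 3 and 5 at that unadjusted threshold. Mzb1, a chaperone of plasma cells, had 16, 13 and 15 normalised counts in wild type and 11, 13 and 15 in labelled knockout libraries. Jchain, which joins secreted IgA, ran from 8 to 69 in wild type and from 17 to 125 in labelled knockout libraries. Neither Mzb1 nor Jchain stands for the list, in which 6 of the 12 genes had a negative fold change and the rest a positive one. Irf4 and Slamf7 were at -1.19 and -1.75, and Fkbp11 and Cd38 at 0.59 and 0.86. All of these had the groups apart and none was called. The log2 ratio of Cd79a to Mzb1 was 2.65 lower on average in labelled knockout libraries, with the groups apart (exact permutation p = 0.1, the smallest possible, and adjusted p = 0.186). Immunoglobulin constant region genes are not analysed here.

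Among follicle signals, lymphotoxin beta was lower and the CXCR5 ligand was not called. Of 15 follicle stroma and lymphotoxin genes tested, 2 were called lower in limma and none higher, beside 3.94% and 4.86% of all genes tested. At an unadjusted p under 0.05, 3 were higher, and the median log2 fold change was 0.08. Ltb, the lymphotoxin chain that lymphocytes use to organise follicles, had 117, 104 and 157 normalised counts in wild type and 58, 37 and 62 in labelled knockout libraries, and fell by 1.26 ± 0.27 (limma adjusted p = 0.0382). Glycam1, a ligand on vessels that admit lymphocytes, fell by 2.18 ± 0.52 from 22, 14 and 12 to 1, 3 and 5, and reached 10 in wild type libraries only. Without wild type 1, 2 or 3 or labelled knockout 2 or 3, limma called 0 genes of the list lower, with 2 lower at an unadjusted p under 0.05 in each fit. Cxcl13, the ligand of CXCR5, was not called: it had 32, 35 and 61 normalised counts in wild type and 49, 14 and 35 in labelled knockout libraries. Madcam1, the vessel address of gut lymphocytes, was not called either, at 0.09 ± 0.30.

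Some markers of other leukocytes were lower as well. Ptprc, which encodes the CD45 protein of all leukocytes and of B cells among them, had 532, 570 and 476 normalised counts in wild type and 176, 257 and 202 in labelled knockout libraries, and fell by 1.32 ± 0.18. Of 12 pan-leukocyte genes, 3 were called lower, beside 3.94% of all genes tested, and 7 without wild type 3 and labelled knockout 1. Leaving out wild type 1, wild type 2 or labelled knockout 3 left 0 called in limma, with 4, 4 and 5 lower at an unadjusted p under 0.05. Their sum ran from 3563 to 4715 normalised counts in wild type and from 2609 to 3307 in labelled knockout libraries. Of 17 T cell genes tested, 1 was called lower, a share near the 3.94% of all genes tested. It was Tcf7, at -0.85 ± 0.20, and 4 genes were lower at an unadjusted limma p under 0.05. With wild type 1, 2 or 3 or labelled knockout 2 or 3 left out, 0 T cell genes were called lower in limma, and 2, 2, 2, 4 and 4 were lower at an unadjusted p under 0.05. The summed T cell list ran from 1261 to 1313 in wild type and from 979 to 1178 in labelled knockout libraries. Its most abundant gene, Bcl11b, had 523, 435 and 426 in wild type and 254, 527 and 416 in labelled knockout libraries. Of the 17 tested, 11 had a negative fold change, and the CD3 genes Cd3e, Cd3d and Cd3g were at 0.27, 0.97 and 0.11, none of them called. Cd3e, a chain of the T cell receptor complex, had 19, 18 and 18 normalised counts in wild type and 34, 14 and 23 in labelled knockout libraries and was not called. Of 7 dendritic cell genes tested, 2 were called lower, of 11 macrophage genes 1, and of 8 endothelial genes 3, beside 3.94% of all genes tested. Each of these 3 counts was 0 in limma without wild type 1, wild type 2 or labelled knockout 3. In those fits 4, 4 and 4 dendritic, 1, 1 and 2 macrophage and 3, 3 and 3 endothelial genes were lower at an unadjusted p under 0.05. The macrophage and endothelial counts were also 0 without wild type 3, with 2 and 5 lower at an unadjusted p under 0.05. The dendritic count was also 0 without labelled knockout 2, with 4 lower at that unadjusted threshold. Of 10 M cell and follicle epithelium genes, 1 was called higher and 1 lower, beside 4.86% and 3.94% of all genes tested. Neither count held without wild type 1, wild type 2 or labelled knockout 3, where limma called 0. In each of those fits 1 was higher and 1 lower at an unadjusted p under 0.05. The lower call was also lost without wild type 3, and the higher call without labelled knockout 2. Both of these fits had 1 higher and 2 lower at that unadjusted threshold. The 5 innate lymphoid, 8 smooth muscle, 7 proximal and 5 distal intestine genes tested had 0 calls in limma, with 1, 2, 0 and 1 at an unadjusted p under 0.05. Of 10 epithelial genes, 3 keratin genes, Krt8, Krt19 and Krt20, were called higher, beside 4.86% of all genes tested. Limma called 1 epithelial gene without wild type 1 and 0 without wild type 2 or labelled knockout 3. In each of those fits 3 were higher at an unadjusted p under 0.05. The list summed to 90837 to 111941 in wild type and to 173977 to 186583 in labelled knockout libraries. The 3 keratin genes entered that sum with means of 20410, 8919 and 4361 in wild type and 48970, 24250 and 17500 in labelled knockout libraries. Epcam and Vil1, at 0.40 ± 0.20 and 0.44 ± 0.15, were not called. The part that these other transcripts' differences had in the lower B cell genes was not tested.

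**Figure D3:**
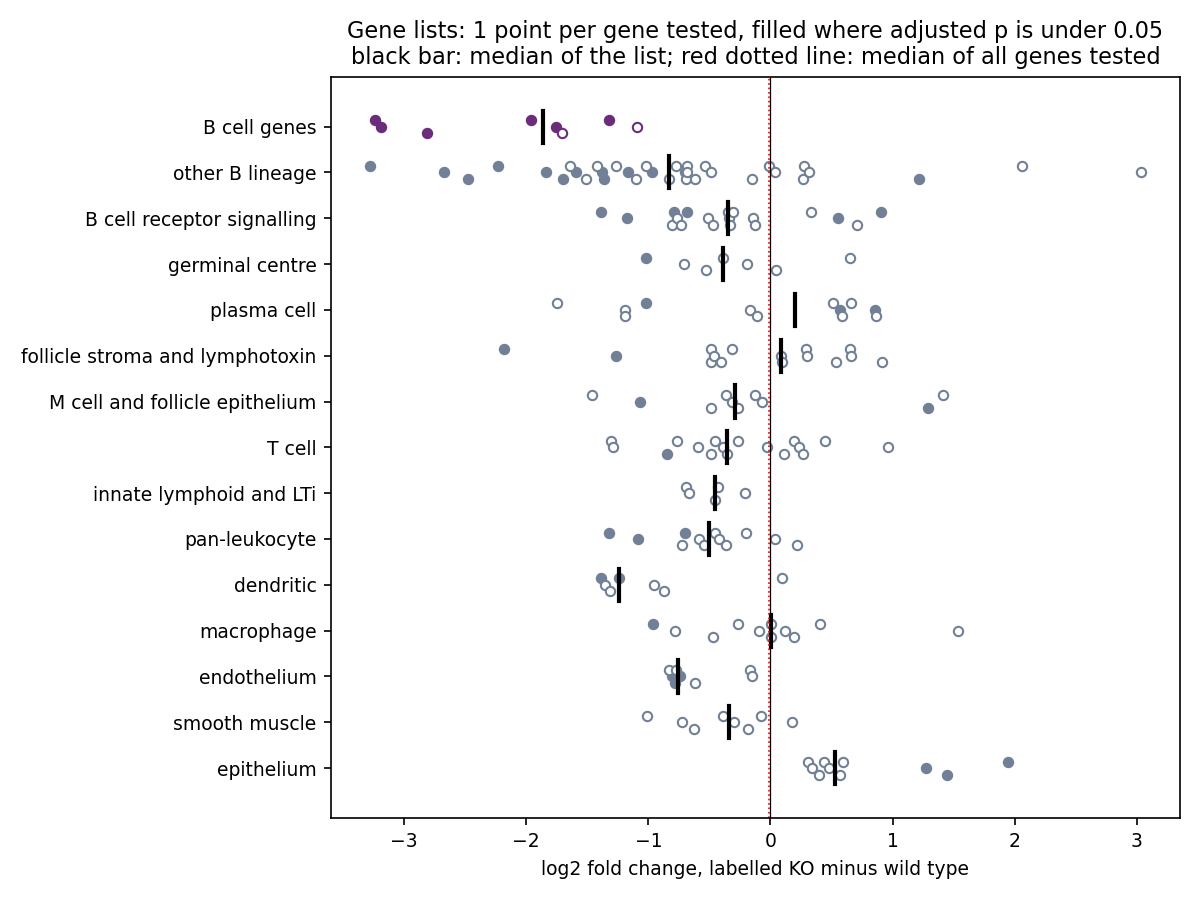
Log2 fold change (horizontal axis, labelled knockout minus wild type) of each tested gene in 15 lists, filled where called, with the list's median as a black bar. The B cell genes have a median of -1.86, other B lineage genes of -0.83, and the median of all genes tested (red dotted line) is -0.01.

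Within each library, Cd79a was set against single genes, Cd3e and Ptprc, neither of which stands for its list: Cd3e was at 0.27 beside a median of -0.35 over the 17 T cell genes tested, and Ptprc at -1.32 was the lowest of the 12 pan-leukocyte genes, whose median was -0.50. The log2 ratio of Cd79a to Cd3e was 2.39, 2.79 and 3.02 in the wild type libraries and -1.54, 0.68 and -0.19 in those labelled knockout. The difference of means was -3.08, and each labelled knockout library lay below each wild type library. The log2 ratio of Cd79a to Ptprc was -2.34, -2.12 and -1.63 in wild type and -3.88, -3.43 and -3.27 in labelled knockout libraries, a difference of -1.49. Both had an exact two-sided permutation p of 0.1, the smallest possible, and an adjusted p of 0.186. Of the 13 ratios, 7 had the groups apart, among them those of Ms4a1 and of Cxcr5 to Cd79a, which were higher by 1.06 and 1.11 in labelled knockout libraries. For Blk relative to Cd79a the groups overlapped (difference 0.85, exact permutation p = 0.4, adjusted p = 0.52). Cd22 relative to Ptprc had a mean log2 ratio of -1.93 in each group (difference -0.001, exact permutation p = 1.0), and Cd79b relative to Ptprc differed by 0.23 (exact permutation p = 0.5). With 3 libraries a group, these tests do not show that the ratios were equal.

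**Figure D4:**
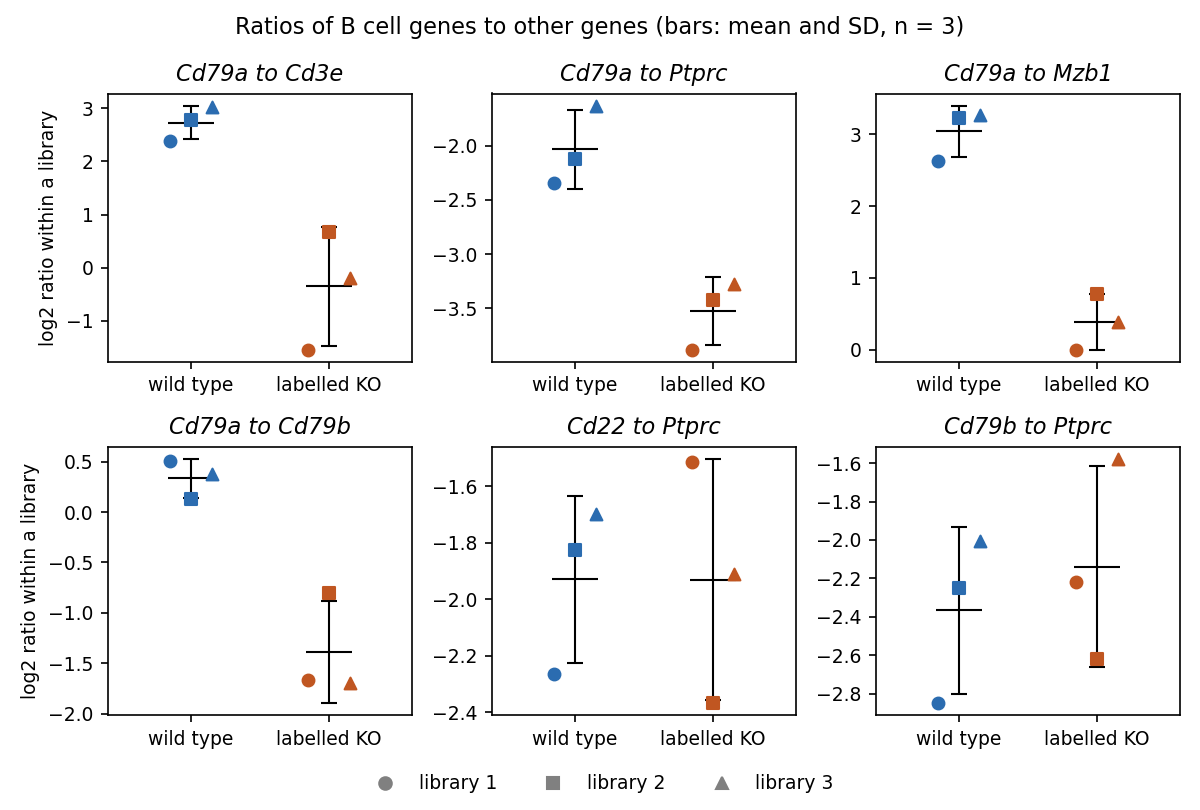
Log2 ratio of 2 genes within a library (vertical axes, each with its own range) for 6 pairs in 3 wild type and 3 labelled knockout libraries; bars are the mean and SD. The groups are apart for the 4 ratios of Cd79a, and overlap for Cd22 and Cd79b relative to Ptprc.

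The 10 genes most like the B cell genes over the 6 libraries are in none of the lists. Likeness was Pearson's r between a gene's log2 values and the mean of the members' centred log2 values, over 13857 named genes. The points share the libraries and the scaling, and 251 genes had an r above 0.95. The 10 highest, from 0.9972 to 0.9903, were Agxt2, Gabra3, Zfp141, Axl, Abcc5, Ano2, Aspn, Cav1, Prkab2 and Pdgfd. All 10 were called lower, a direction that the measure of likeness favours, from -0.53 for Axl, a receptor tyrosine kinase, to -1.86 for Ano2, a chloride channel. Of the B lineage list, r was highest for Tnfrsf13c, at 0.986, and Bank1, at 0.981, and lowest for Fcgr2b, at -0.925, and Ly6d, at -0.738.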

How the data were processed

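PolyA RNA was taken with Trizol from flash-frozen intestine and sequenced from TruSeq RNA libraries, per the labels' protocols. TopHat2 2.1.0, HTSeq 0.6.0, DESeq2 (no version) and the build mm10 are named in the submitters' processing notes, without roles. The deposited values are a score: whole numbers that, as the values show, the authors had scaled per library and rounded, since some files skip low whole numbers. Raw reads were not rebuilt from them, so depth in reads is unknown and no counting interval is given. Each file held 24452 symbols, and 4 repeated symbols were left out.

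limma 3.58.1 in R 4.3.3 was fitted to log2(normalised count + 1), with genotype as the only term and an intensity trend. A gene entered with a value of 10 or more in 3 or more libraries, which left 14682. The fit had 4 residual and 2.99 prior degrees of freedom. P-values are two-sided; they were adjusted by the Benjamini-Hochberg method, and a gene was called at an adjusted p under 0.05. Ratios within libraries, log2 after adding 1 to each value, were tested by exact permutation. Scripts were tested on simulated data. The members and the 17 other lists were chosen with earlier results of these data known. The rule for named genes gave all members, Mapk3, the 10 genes most like the members, and the 3 lowest p and the most abundant gene of each list, of which some are not printed. Other genes were named for their role after their values were seen, as were the ratios other than Cd79a to Cd3e and to Ptprc. Positions and exon lengths are from GENCODE vM21 (GRCm38). Fits without a library kept the genes of the fit with all 6, a choice made after seeing the data. Some listed genes enter the counts but are not reported by name here.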

Additional observations from a re-analysis of the deposited data

How the results depend on the processing

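None of the 8 tested B cell genes changed sign under any alternative. The members called lower were 6 with pseudocounts of 0.5 and 5, with limma-voom and with a filter on a mean of 5 (added after seeing the data), 7 without an intensity trend or with either other scaling, where Cxcr5 joined, and 7 without a filter, where Pax5 joined. They were 4 of 5 tested with a filter of 20, 8 at a threshold of 0.1, 1 at 0.01 and 0 to 6 in fits without 1 library. The genes called over all genes were 2848 and 52 at those thresholds, 48 to 3014 in fits without 1 library and 3882 without wild type 3 and labelled knockout 1. With library totals or upper quartiles the median over all genes was -0.19 or -0.10 in log2 units, in place of -0.01, and the higher share of the calls was 29.7% or 40.6%, in place of 55.2%. The mean log2 difference over the 9 members was -2.22, and -1.64 with a pseudocount of 5, which shrinks low values.

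The labels do not say whether replicate numbers pair the libraries, and the values do not settle it. Deviations of same-numbered libraries correlated at -0.373, 0.302 and -0.161. For wild type 1, 2 and 3, the highest correlation with a differently numbered labelled knockout library was 0.3904, 0.0985 and 0.4124. Wild type 3 and labelled knockout 1, which stood apart in gut position, carry different numbers, so the correlations cannot exclude pairing. With the replicate block, 64 genes and 2 members, Cd79a and Fcer2a, were called. The number of libraries and counts as low as 0 to 9 for Pax5 limit the precision.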

Other observations

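A few genes of the lists varied among libraries of a group, and are given as values chosen after they were seen. Ly6d, an early B lineage gene that squamous epithelium also expresses, was at 86, 82 and 93 normalised counts in wild type 1 to 3 and at 8777, 266 and 159 in labelled knockout 1 to 3. Cd55, a complement inhibitor, was at 104, 122 and 492 in wild type and at 709, 781 and 836 in labelled knockout libraries. Gp2, a receptor of M cells that the pancreas also makes, was at 99, 12 and 4 and at 6, 36 and 12. The called genes of the M cell and follicle epithelium list had their groups apart. Tnfrsf11a, the RANK receptor through which M cells are induced, fell by 1.07 ± 0.24 in log2 units (limma adjusted p = 0.0433). Ccl9, a chemokine of follicle epithelium, rose by 1.29 ± 0.26 (limma adjusted p = 0.0344). Neither gene was called without wild type 1, wild type 2 or labelled knockout 3. Tnfrsf11a was also not called without wild type 3, and Ccl9 was also not called without labelled knockout 2.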
